A study of Mus musculus with 6 samples.

Results

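The genes described here make, sense, move, store and export cholesterol. They are the 31 genes on a fixed list of symbols, all present among the 52550 gene symbols of one deposited count table, and all 31 had enough counts to be tested. RNA was sequenced from mouse AT2 cells (alveolar type II epithelium, which secretes lung surfactant), taken from dispase-digested lungs of C57BL/6 mice by magnetic sorting for cells without CD45 and with EPCAM. The 3 libraries labelled Grp78 knockout carry the genotype label Sftpc+/creERT2; Grp78f/f with Tmx (tamoxifen), and the 3 control libraries the same alleles without Tmx. Both groups therefore share floxed Grp78 alleles and a tamoxifen-activated Cre recombinase at one allele of the surfactant protein C gene, an AT2 cell gene, whereas the sort also takes other epithelial cells. Every sample, controls included, also has a label counting 10 days after a Tmx injection, which conflicts with the control genotype, so whether the controls received tamoxifen cannot be settled. Tamoxifen and loss of Grp78 cannot be told apart in this design. Nothing in the labels ties replicates to separate animals, so the p-values reflect variation among these 6 samples only, and that variation may be technical.

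Cholesterol is built from acetyl-CoA. Mevalonate pathway enzymes first make isoprenoid units, squalene is then assembled and closed into a ring, and a chain of sterol enzymes turns lanosterol into cholesterol. The transcription factors SREBP-1 and SREBP-2 are held in the endoplasmic reticulum (ER) membrane by SCAP and INSIG proteins when sterols are plentiful, and are released to the Golgi and cleaved when sterols are scarce. SREBP-2 mainly drives the cholesterol enzymes and SREBP-1 the fatty acid enzymes. AT2 cells use cholesterol as a minor lipid of surfactant. Grp78, encoded by Hspa5, is the main chaperone of the ER.

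Libraries 1, 2 and 3 labelled knockout held 128129307, 110770711 and 123195011 counts, and controls 1, 2 and 3 held 131235053, 149520306 and 134215811. The 31 genes took 0.568% to 0.686% of all counts in the libraries labelled knockout and 0.714% to 0.742% in controls. These shares weigh Npc2 heavily. That gene alone held 348904 of the 733796 member counts in library 1 labelled knockout and 478009 of 844539 in library 3. In control 1 it held 503912 of 973327. Hspa5 was at 9262, 9180 and 3809 CPM (library-scaled counts, corrected by the trimmed mean of M values, TMM) in the libraries labelled knockout and at 1355, 1288 and 924.8 CPM in controls, a called rise (log2 fold 2.64, edgeR adjusted p = 0.00208) where the label names a loss. Since whole-gene counts cannot show the floxed exons apart, they do not check recombination, and each direction below is one between libraries as labelled. Sftpc, the defining AT2 marker, was at 14460 to 18610 CPM in the libraries labelled knockout and at 43710 to 54840 CPM in controls. Over all 18849 genes tested, 18.8% were called lower and 18.0% higher (edgeR adjusted p under 0.05), shares to set beside the marker counts that follow. Of 22 AT2 markers 21 were lower (median log2 fold -1.28), and their summed level was 49950 to 63550 CPM in the libraries labelled knockout against 127100 to 143100 CPM in controls. Of 12 pan-epithelial genes 6 were lower (median -0.24; summed 2219 to 2270 CPM against 2565 to 2808 CPM in controls). Fibroblast and smooth muscle markers, 17 in all, were higher in 15 cases (median 1.49; summed 2412 to 2526 CPM against 1069 to 1471 CPM in controls), and none of the 17 was at 0 in any library. Of 7 mesothelial markers 6 were higher (summed 474.7 to 619.3 CPM against 273.3 to 322.4 CPM in controls). The 17 leukocyte markers other than Lyz1, which AT2 cells also express, summed to 119.6 CPM in library 3 labelled knockout, to 15.85 and 16.58 CPM in libraries 1 and 2 labelled knockout, and to 10.92 to 20.57 CPM in controls, with Marco and Cd3e at 0 in at least 1 library. The part of these cell type markers in the cholesterol results was not tested. In bulk RNA, fewer cells of a type and less RNA per cell cannot be told apart.

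Promoters of the genes that moved are shown first, because SREBPs act on cholesterol genes through a sterol response element (SRE) together with the CCAAT-binding factor NF-Y. RefSeq promoter windows (build GRCm38.p6), running from 250 bases before to 50 bases after each annotated start, were at hand for 24 of the 31 genes. The SRE letters searched were TCACNCCA and the NF-Y letters CCAAT, each on both strands and in any window of a gene. Matches of either motif are in capitals in the windows below, and a CCAAT box on the opposite strand reads ATTGG. The first 3 windows are those of the members with an SRE match, the fourth is that of the member with the largest fall, and the last is that of the member called higher.
Hmgcs1 (chr13:119690101-119690400, plus strand): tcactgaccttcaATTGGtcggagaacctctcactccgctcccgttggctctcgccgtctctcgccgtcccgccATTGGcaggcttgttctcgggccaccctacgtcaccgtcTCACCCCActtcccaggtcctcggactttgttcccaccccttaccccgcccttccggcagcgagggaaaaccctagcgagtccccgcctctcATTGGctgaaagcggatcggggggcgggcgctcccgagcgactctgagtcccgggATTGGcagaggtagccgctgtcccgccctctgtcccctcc
Msmo1 (chr8:64733529-64733828, minus strand): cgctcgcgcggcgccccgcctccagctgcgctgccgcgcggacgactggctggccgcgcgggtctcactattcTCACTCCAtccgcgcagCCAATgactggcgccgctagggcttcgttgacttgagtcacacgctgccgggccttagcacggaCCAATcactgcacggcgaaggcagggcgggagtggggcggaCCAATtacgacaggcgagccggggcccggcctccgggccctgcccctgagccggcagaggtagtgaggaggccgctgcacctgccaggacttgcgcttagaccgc
Srebf2 (chr15:82147019-82147318, plus strand): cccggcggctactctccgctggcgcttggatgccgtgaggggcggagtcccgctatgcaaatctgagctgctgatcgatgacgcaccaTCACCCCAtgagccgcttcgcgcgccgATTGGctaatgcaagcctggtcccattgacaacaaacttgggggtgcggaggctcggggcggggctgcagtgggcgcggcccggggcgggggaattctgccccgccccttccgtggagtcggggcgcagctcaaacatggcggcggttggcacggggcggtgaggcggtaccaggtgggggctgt
Idi1 (chr13:8885356-8885655, plus strand): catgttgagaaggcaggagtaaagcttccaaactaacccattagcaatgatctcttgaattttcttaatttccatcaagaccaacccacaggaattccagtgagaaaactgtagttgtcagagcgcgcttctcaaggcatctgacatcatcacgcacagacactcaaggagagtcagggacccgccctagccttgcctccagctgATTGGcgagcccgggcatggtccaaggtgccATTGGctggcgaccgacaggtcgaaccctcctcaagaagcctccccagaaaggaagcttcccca
Ebp (chrX:8193463-8193762, minus strand): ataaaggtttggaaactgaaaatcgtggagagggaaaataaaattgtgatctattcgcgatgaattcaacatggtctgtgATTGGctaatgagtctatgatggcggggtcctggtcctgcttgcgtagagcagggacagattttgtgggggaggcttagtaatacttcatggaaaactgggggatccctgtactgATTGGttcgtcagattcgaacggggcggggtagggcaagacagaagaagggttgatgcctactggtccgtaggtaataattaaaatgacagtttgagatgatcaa
Counted from the annotated start, the SRE match began at -137 in Hmgcs1, at -177 in Msmo1 and at -162 in Srebf2. SRE letters were held by 3 of 24 members (12.5%), against 948 of 19469 genes of the count table with a window (4.87%). All 3 were among the 16 members called lower (18.8%), and none was among the other 8. With 3 matches, these shares are too uncertain to show an excess. CCAAT was held by 21 of 24 members (87.5%), against 41.5% of all genes, with 4 matches in the Hmgcs1 window and 5 in that of Mvk. CCAAT matches were as frequent among the 16 members called lower (14 genes, 87.5%) as among the other 8 (7 genes, 87.5%). The ER stress element, a CCAAT box and a CCACG box at a fixed spacing through which ATF6 acts on chaperone genes, was found in no member window. These letters were found in 31 of 19469 genes (0.159%), too rare for their absence from 24 genes to tell anything. These matches describe letters and are not measured binding sites.

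Most of the cholesterol genes were lower in the libraries labelled knockout. Of 31 members, 17 were called lower and 1, Ebp, higher by edgeR at an adjusted p under 0.05, and 13 were not called. Over all 18849 genes tested, 36.8% were called, 18.8% lower and 18.0% higher. Values of the groups did not overlap for 24 members, with 22 below and 2 above controls; over all genes this held for 51.6%, with 26.6% below and 25.0% above. The median log2 fold was -0.51 over the members and 0.02 over all genes tested. The list was chosen with earlier results of these data known, so these comparisons describe it and do not test it. Falls were moderate in size: called members were lower by 1.35-fold to 2.29-fold, and 4 of them (Idi1, Acat2, Insig1 and Dhcr7) by 2-fold or more.

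**Figure D1:**
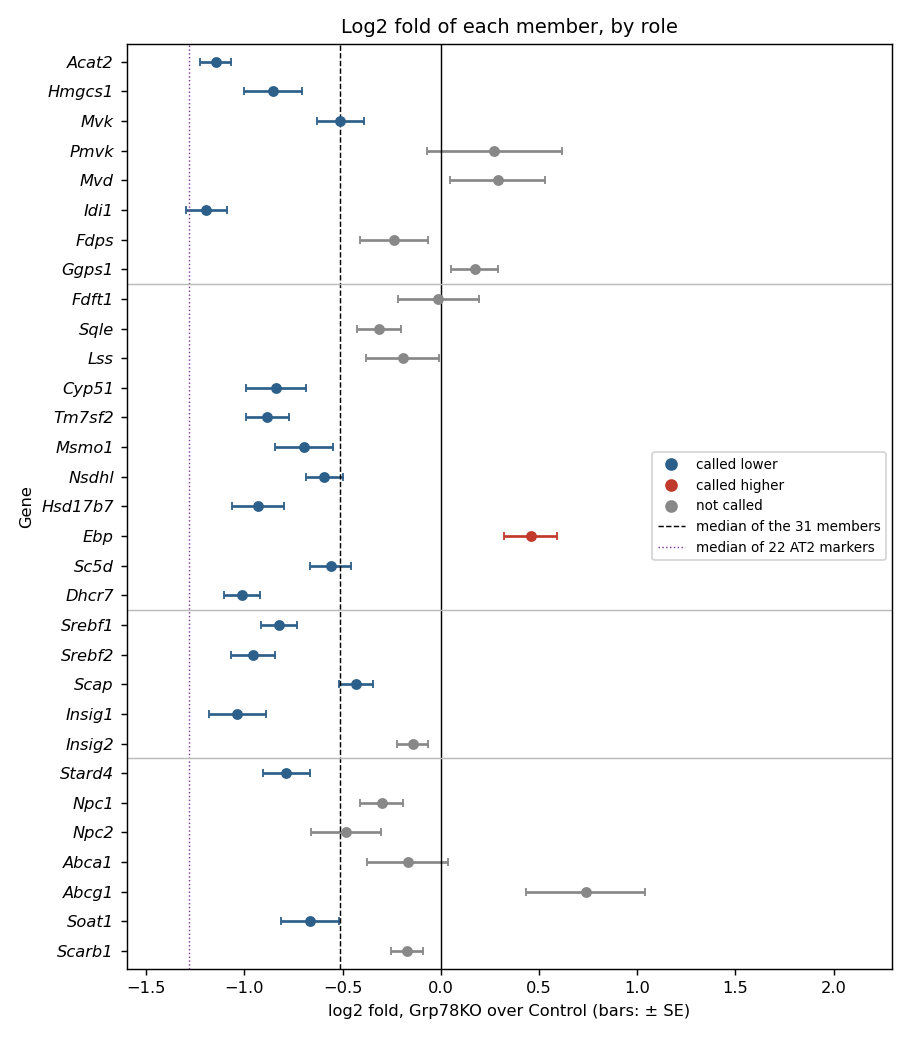
Log2 fold of each of the 31 genes (horizontal axis, libraries labelled knockout over controls), ordered by role from top to bottom and split by grey lines into mevalonate steps, sterol steps, SREBP control, and cholesterol handling. Points are edgeR estimates and bars ± SE, with 3 libraries a group; the dashed line at -0.51 is the median of the 31 genes and the dotted line at -1.28 that of 22 AT2 markers, and every blue point lies left of 0.

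Of the 5 sensing and control genes 4 fell, Insig2 being the exception, and the median log2 fold was -0.82. Srebf2, which encodes SREBP-2 (chromosome 15, 82147181 to 82205379, plus strand, mm10), was at 181.6, 185.4 and 215.2 CPM in libraries 1, 2 and 3 labelled knockout, against 356.0, 375.1 and 396.8 CPM in controls 1, 2 and 3. No library of one group came near the other (log2 fold -0.95, SE 0.112, edgeR adjusted p = 0.00121). Srebf1, which encodes SREBP-1 (chromosome 11, 60199089 to 60222581, minus strand), was at 181.0, 182.5 and 180.7 CPM in the libraries labelled knockout, against 317.7, 322.4 and 323.2 CPM in controls. The coefficient of variation of Srebf1 was 0.532% within the libraries labelled knockout and 0.925% within controls, the lowest of the 31 genes within the first group, and the groups lay far apart (log2 fold -0.82, SE 0.0893, edgeR adjusted p = 0.000939). The SREBP-1a and SREBP-1c transcripts, which start at different exons, are counted together.

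Insig1, the INSIG gene that SREBPs themselves induce, was at 141.6, 139.9 and 109.6 CPM in the libraries labelled knockout, against 253.5, 242.1 and 306.4 CPM in controls. That is 2.05-fold lower (log2 fold -1.04, SE 0.144, edgeR adjusted p = 0.00222), with the groups well apart. Insig2, its paralogue, was at 51.95, 49.20 and 52.28 CPM in the libraries labelled knockout, against 58.99, 55.44 and 55.05 CPM in controls. The Insig2 groups were separate but close, and the difference was not called (log2 fold -0.14, SE 0.0776, edgeR adjusted p = 0.182). Its sign turned with library-size and with pan-epithelial scaling, it was called lower without both libraries numbered 3 (edgeR adjusted p = 0.0469), and whether the paralogues differ in response was not tested. Scap, the escort protein of SREBPs, was at 94.02, 92.39 and 88.91 CPM in the libraries labelled knockout, against 128.4, 128.7 and 114.3 CPM in controls (log2 fold -0.43, SE 0.0875, edgeR adjusted p = 0.00864). The Scap call ended when libraries were scaled by size alone or by the 12 pan-epithelial genes (edgeR adjusted p = 0.0992 and 0.0835).

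**Figure D2:**
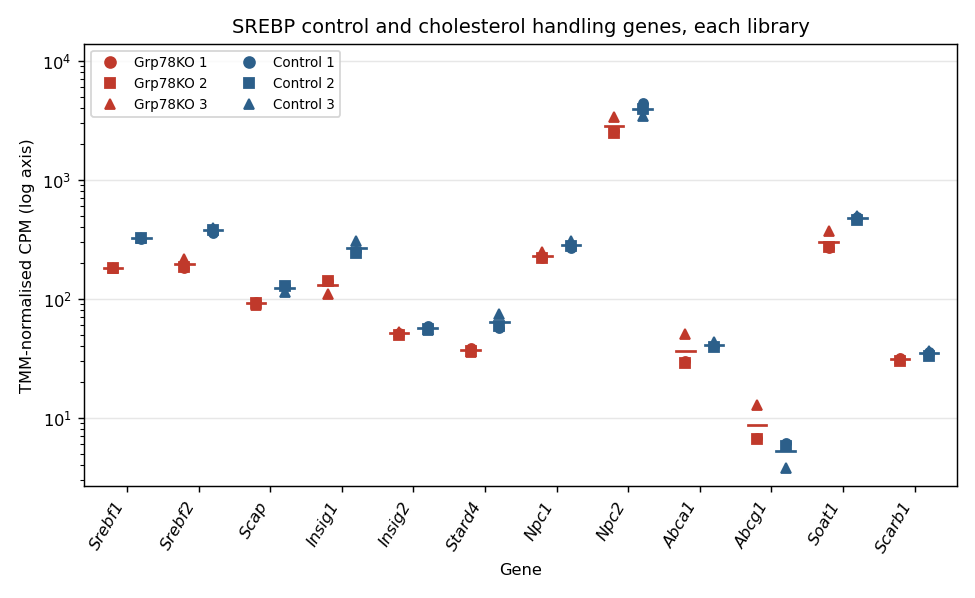
TMM-normalised CPM (vertical log axis) of the 5 SREBP control genes and 7 cholesterol handling genes in each library, with libraries labelled knockout in red left of controls in blue, symbols for replicate numbers and a short line at each group mean. Srebf1 shows 180.7 to 182.5 CPM in red and 317.7 to 323.2 CPM in blue, while Abca1 and Abcg1 have 1 red triangle, library 3 labelled knockout, above the others.

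Calls among the early enzymes were divided. Of 8 mevalonate and isoprenoid genes 4 were lower, none was called higher by edgeR, limma-voom or DESeq2, and none was higher at an unadjusted edgeR p under 0.05. Idi1, which encodes the isopentenyl diphosphate isomerase (chromosome 13, 8885501 to 8892451, plus strand), was at 127.6, 123.5 and 113.5 CPM in the libraries labelled knockout, against 299.9, 272.3 and 261.8 CPM in controls. It showed the largest fall of the 31 genes (2.29-fold lower, log2 fold -1.19, SE 0.103, edgeR adjusted p = 0.000532). Acat2, the cytosolic thiolase gene that starts the pathway, was at 50.69, 52.00 and 54.12 CPM in the libraries labelled knockout, against 118.4, 116.8 and 111.8 CPM in controls (log2 fold -1.15, SE 0.0786, edgeR adjusted p = 0.000351). Acat2 reads may be shared with its paralogue Acat3, since 39.1% of the 50-base words of Acat2 transcripts also occur in Acat3; Acat3 itself held 101 to 125 counts per library labelled knockout and 319 to 358 per control.

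Hmgcs1, the HMG-CoA synthase gene whose promoter is printed above, was at 154.1, 163.5 and 160.8 CPM in the libraries labelled knockout, against 256.5, 253.6 and 354.4 CPM in controls (log2 fold -0.85, SE 0.147, edgeR adjusted p = 0.00473). Control 3 was the high sample here and controls 1 and 2 lay close together. Mvk, the mevalonate kinase gene, was at 27.09, 27.08 and 20.90 CPM in the libraries labelled knockout, against 36.92, 33.63 and 36.40 CPM in controls (log2 fold -0.51, SE 0.119, edgeR adjusted p = 0.0144), a call that ended with library-size scaling (edgeR adjusted p = 0.0991) and with pan-epithelial scaling (edgeR adjusted p = 0.116). The next kinase gene Pmvk ranged from 122.8 to 189.3 CPM in the libraries labelled knockout and from 68.43 to 168.7 CPM in controls, and control 3 was the low sample. The groups overlapped (log2 fold 0.27, SE 0.343, edgeR adjusted p = 0.563), and the sign turned without control 3.

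Mvd, which encodes the decarboxylase that yields isopentenyl diphosphate, was at 57.04, 55.20 and 28.39 CPM in the libraries labelled knockout, against 38.34, 36.22 and 40.37 CPM in controls. Libraries 1 and 2 labelled knockout thus lay above every control and library 3 below every control. It was not called over all 6 libraries (log2 fold 0.29, SE 0.242, edgeR adjusted p = 0.375), but without library 3 labelled knockout Mvd was called higher (log2 fold 0.55, edgeR adjusted p = 0.00182). Fdps, the farnesyl diphosphate synthase gene, was not called (log2 fold -0.24, edgeR adjusted p = 0.308), and neither was Ggps1, the geranylgeranyl diphosphate synthase gene (log2 fold 0.17, edgeR adjusted p = 0.293). The sign of the Fdps value turned with library-size and with pan-epithelial scaling, under which Ggps1 was called higher (pan-epithelial scaling, log2 fold 0.42, edgeR adjusted p = 0.0218).

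**Figure D3:**
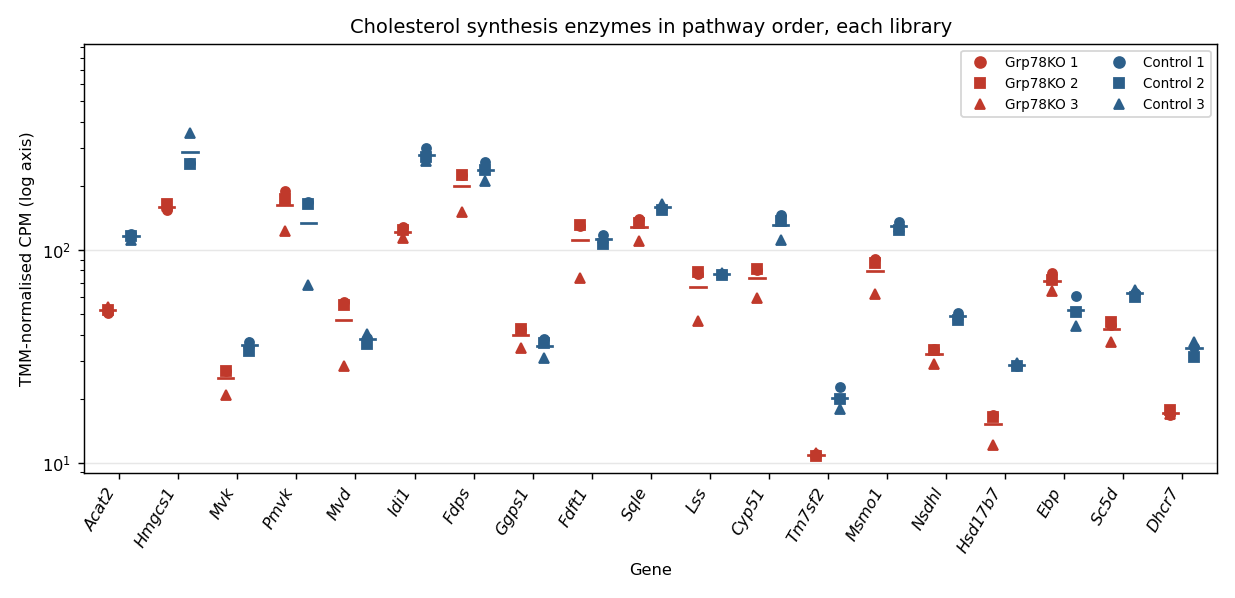
TMM-normalised CPM (vertical log axis) of the 19 synthesis enzymes in pathway order in each library, with libraries labelled knockout in red left of controls in blue, symbols for replicate numbers and a short line at each group mean. Acat2, Idi1 and Dhcr7 show tight, separate groups, and in Mvd, Fdft1 and Lss the red triangle of library 3 labelled knockout lies below the other red points.

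In the squalene and sterol steps the calls lay after ring closure. Of these 11 genes 7 were lower and 1 higher, with a median log2 fold of -0.59. Fdft1, the squalene synthase gene, was at 129.1, 130.9 and 73.52 CPM in the libraries labelled knockout, against 116.9, 106.6 and 113.2 CPM in controls, and library 3 labelled knockout stood apart (log2 fold -0.01, SE 0.207, edgeR adjusted p = 0.965; called higher at 0.22 without both libraries numbered 3). Exons of Fdft1 overlap those of the cathepsin B gene Ctsb on the opposite strand, and the labels do not say that counting used strand. Lss, which encodes the lanosterol synthase that closes the ring, was also low in library 3 labelled knockout while libraries 1 and 2 lay at the control level, with 76.83, 78.32 and 46.34 CPM in the libraries labelled knockout, against 76.81, 76.37 and 77.48 CPM in controls (log2 fold -0.19, SE 0.188, edgeR adjusted p = 0.444), with its sign turned under library-size and pan-epithelial scaling. Sqle, the squalene epoxidase gene, was at 139.9, 133.1 and 109.8 CPM in the libraries labelled knockout, against 158.0, 154.0 and 163.7 CPM in controls. Its groups were separate, but it was not called (log2 fold -0.31, SE 0.112, edgeR adjusted p = 0.0609) while DESeq2 (adjusted p = 0.0438) and edgeR with the replicate number as a block (adjusted p = 0.0483) called it lower.

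After ring closure 7 of 8 enzymes were lower. Cyp51, the lanosterol demethylase gene, was at 80.12, 81.17 and 59.58 CPM in the libraries labelled knockout, against 146.5, 136.7 and 111.6 CPM in controls (log2 fold -0.84, SE 0.154, edgeR adjusted p = 0.00596). Tm7sf2, a sterol reductase gene, was at 10.96, 10.69 and 11.05 CPM in the libraries labelled knockout, against 22.64, 19.84 and 17.86 CPM in controls (log2 fold -0.88, SE 0.109, edgeR adjusted p = 0.00142). Cyp51 shares exon bases with Akap9 on the opposite strand, and Tm7sf2 shares them with Vps51 on the same strand. Msmo1, which encodes the methylsterol monooxygenase that begins C4 demethylation, was at 90.42, 87.12 and 61.87 CPM in the libraries labelled knockout, against 135.6, 123.6 and 128.3 CPM in controls (log2 fold -0.70, SE 0.148, edgeR adjusted p = 0.0103). Its partners in that step, Nsdhl and Hsd17b7, were lower as well. Nsdhl was at 34.11, 33.94 and 29.09 CPM in the libraries labelled knockout, against 50.27, 46.78 and 49.47 CPM in controls (log2 fold -0.59, SE 0.0930, edgeR adjusted p = 0.0034). Hsd17b7 was at 16.77, 16.44 and 12.14 CPM in the libraries labelled knockout, against 28.55, 28.57 and 29.30 CPM in controls (log2 fold -0.93, SE 0.132, edgeR adjusted p = 0.00241).

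In the last steps Ebp was higher, and Sc5d and Dhcr7, which act after it, were lower. Ebp, the sterol isomerase gene (chromosome X, 8185329 to 8193512, minus strand), was at 77.69, 72.32 and 64.09 CPM in the libraries labelled knockout, against 60.76, 51.06 and 44.05 CPM in controls. A small gap separated the groups (log2 fold 0.46, SE 0.134, edgeR adjusted p = 0.0321), and the call ended without library 1 or 2 labelled knockout or without control 2 or 3 (edgeR adjusted p up to 0.112). Sc5d, the lathosterol oxidase gene, was at 44.55, 45.70 and 36.82 CPM in the libraries labelled knockout, against 62.75, 59.96 and 64.74 CPM in controls (log2 fold -0.56, SE 0.103, edgeR adjusted p = 0.00598). Dhcr7, which encodes the reductase that finishes cholesterol (chromosome 7, 143823145 to 143848410, plus strand), was at 16.69, 17.74 and 16.95 CPM in the libraries labelled knockout, against 34.96, 31.53 and 37.07 CPM in controls. It was 2.02-fold lower, with tight values in both groups (log2 fold -1.01, SE 0.0924, edgeR adjusted p = 0.000644).

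Of the 7 genes that move, store and export cholesterol 2 were called lower (28.6%), against 18.8% over all genes. None was called higher by edgeR or limma-voom, and the median log2 fold was -0.30. Values in the libraries labelled knockout lay wholly below controls for 5 of the 7 genes, against 26.6% over all genes. Abcg1 alone was higher at an unadjusted edgeR p under 0.05 (0.0413), and DESeq2 called it (adjusted p = 0.0282). Stard4, a soluble sterol carrier gene that SREBPs induce, was at 38.52, 36.37 and 35.61 CPM in the libraries labelled knockout, against 56.73, 59.03 and 74.80 CPM in controls (log2 fold -0.79, SE 0.119, edgeR adjusted p = 0.00303). Soat1, which encodes the enzyme that esterifies cholesterol for storage, was at 265.1, 274.3 and 367.8 CPM in the libraries labelled knockout, against 488.1, 457.5 and 491.9 CPM in controls (log2 fold -0.66, SE 0.148, edgeR adjusted p = 0.0122). Library 3 labelled knockout was the high sample of its group for Soat1. The Soat1 call ended with library-size scaling (edgeR adjusted p = 0.0985) and without library 2 labelled knockout (edgeR adjusted p = 0.0577).

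Npc2 and Npc1, the soluble and membrane proteins that carry cholesterol out of lysosomes, had separate groups but were not called by edgeR, while DESeq2 called both lower (adjusted p = 0.016 for Npc2 and 0.0384 for Npc1). Npc2 was at 2566, 2475 and 3388 CPM in the libraries labelled knockout, against 4420, 3915 and 3443 CPM in controls (log2 fold -0.48, SE 0.180, edgeR adjusted p = 0.0695). Npc1 was at 217.9, 221.4 and 246.3 CPM in the libraries labelled knockout, against 265.3, 275.4 and 304.4 CPM in controls (log2 fold -0.30, SE 0.107, edgeR adjusted p = 0.0591; 0.0153 with the replicate block). Without library 3 labelled knockout both were called lower, with log2 folds of -0.64 for Npc2 and -0.36 for Npc1 (edgeR adjusted p = 0.00941 and 0.0205). Scarb1, which encodes the high-density lipoprotein receptor SR-BI, was at 31.53, 29.98 and 31.35 CPM in the libraries labelled knockout, against 35.65, 32.93 and 36.10 CPM in controls. That small gap was not called (log2 fold -0.17, SE 0.0807, edgeR adjusted p = 0.128), and its sign turned with library-size and with pan-epithelial scaling.

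Values of the exporters Abca1 and Abcg1, targets of the oxysterol receptor LXR, rested on library 3 labelled knockout. Abca1 was at 29.69, 29.04 and 50.21 CPM in the libraries labelled knockout, against 39.76, 39.43 and 43.20 CPM in controls. Libraries 1 and 2 labelled knockout were thus below every control and library 3 above every control (log2 fold -0.17, SE 0.207, edgeR adjusted p = 0.554); without library 3 labelled knockout Abca1 was called lower (log2 fold -0.48, edgeR adjusted p = 0.00347). Abcg1 was at 6.759, 6.622 and 12.85 CPM in the libraries labelled knockout, against 6.166, 5.809 and 3.767 CPM in controls (log2 fold 0.74, SE 0.301, edgeR adjusted p = 0.0903). Without library 3 labelled knockout its log2 fold was 0.35 (edgeR adjusted p = 0.219), and without control 3 it was 0.54 (edgeR adjusted p = 0.223). Library-size and pan-epithelial scaling called Abcg1 higher (edgeR adjusted p = 0.0373 and 0.0313) and turned the sign of the Abca1 value. Both genes are also expressed by macrophages, and library 3 labelled knockout is the library with 119.6 CPM of leukocyte markers; the part of those cells was not tested.

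**Figure D4:**
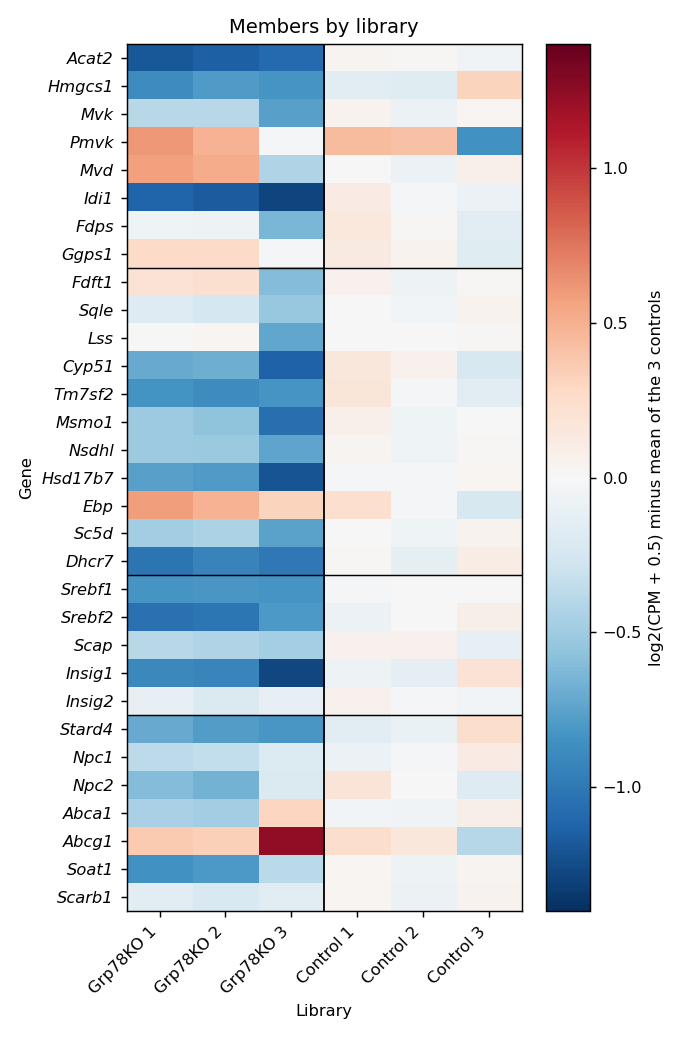
Difference of log2(CPM + 0.5) in each library (columns, libraries labelled knockout left of the black line and controls right of it) from the mean of the 3 controls, for the 31 genes in role order (rows). Blue is below and red above the control mean; libraries 1 and 2 labelled knockout look alike, and library 3 labelled knockout is bluer for most enzymes and redder for Npc2, Abca1, Abcg1 and Soat1.

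Libraries 1 and 2 labelled knockout differed by at most 0.13 on the log2 scale for any of the 31 genes. Library 3 labelled knockout was the lowest of the 3 for 15 of 19 synthesis enzymes, with a median log2 difference of -0.31 from the other 2, and the highest for 5 of 7 handling genes, with a median of 0.43. Summed over the 19 enzymes, the level was 1591, 1568 and 1207 CPM in libraries 1, 2 and 3 labelled knockout, against 2111, 1986 and 1952 CPM in controls. The 5 SREBP control genes summed to 650.1, 649.4 and 646.7 CPM in the libraries labelled knockout, against 1115, 1124 and 1196 CPM in controls. Within those even sums library 3 labelled knockout was lower than the other 2 for Insig1 (log2 difference -0.36) and higher for Srebf2 (0.23). Marker levels of other cell types also differed between libraries of a group. Endothelial markers summed to 926.0, 974.3 and 575.0 CPM in libraries 1, 2 and 3 labelled knockout, against 626.2, 644.4 and 587.3 CPM in controls 1, 2 and 3. Erythroid markers summed to 1355, 809.6 and 320.8 CPM in the libraries labelled knockout, against 654.4, 418.6 and 566.9 CPM in controls. Control 3 thus lay close to the other controls for endothelial markers and between them for erythroid markers. Airway markers summed to 36980 to 41200 CPM in the libraries labelled knockout, against 65970, 62580 and 37900 CPM in controls 1, 2 and 3. Their part in the differences between libraries was not tested. Without library 3 labelled knockout, 20 members were lower and 2 higher, and without both libraries numbered 3, 22 were lower and 4 higher (Mvd, Ggps1, Fdft1 and Ebp).

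Levels per kilobase of exon (GENCODE M21 exon union, so approximate for the transcripts AT2 cells use) spanned a wide range. Npc2 stood far above the other members, at a mean of 516.7 CPM per kilobase in the libraries labelled knockout and 722.0 in controls. Next in controls came Insig1 at 86.42, Idi1 at 79.32 and Pmvk at 78.17 CPM per kilobase; in the libraries labelled knockout Insig1 was at 42.16, Idi1 at 34.66 and Pmvk at 94.45. Srebf1 and Srebf2 were close to each other, at 32.20 and 27.02 CPM per kilobase in the libraries labelled knockout and 56.99 and 52.34 in controls. The lowest level was that of Abcg1, at 1.198 CPM per kilobase in the libraries labelled knockout and 0.7191 in controls.

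Other genes of the pathway were read from 7 lists outside the members, with 92 of 94 genes tested, 34 lower (37.0%) and 16 higher (17.4%), against 18.8% and 18.0% over all genes. The share called higher was thus at the level of all genes. Among the SREBP targets of fatty acid synthesis 11 of 14 were lower and the median log2 fold was -0.96. Over the 92 genes the median was -0.22, and over all genes tested 0.02. Fads2, a desaturase gene, was at 24.47, 25.12 and 25.38 CPM in the libraries labelled knockout, against 49.92, 47.63 and 50.62 CPM in controls (log2 fold -0.98, edgeR adjusted p = 0.000445). Fads1, Mid1ip1 and Scd2 followed with log2 folds of -1.14, -1.27 and -1.12 (edgeR adjusted p = 0.000513, 0.000598 and 0.000753). The sole gene of that list called higher was Elovl6, an elongase gene at 2.60 CPM in the libraries labelled knockout and 1.75 CPM in controls (log2 fold 0.57, edgeR adjusted p = 0.0395), a call that ended without any 1 of 5 libraries, the exception being library 3 labelled knockout, and with no filter on low counts.

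Among 15 genes of SREBP cleavage, turnover and co-factors 6 were lower (40%) and 1 higher (6.67%). Over all genes these shares were 18.8% and 18.0%. Rnf145, an ER ubiquitin ligase gene, had the lowest adjusted p of those that fell (log2 fold -0.60, edgeR adjusted p = 0.00208), and Mbtps1, which encodes the site-1 protease that cuts SREBPs, followed at a log2 fold of -0.35 (edgeR adjusted p = 0.014). Sp1 and Fbxw7, an SREBP co-factor and an SREBP-degrading ligase, were at -0.42 and -0.55 (edgeR adjusted p = 0.0155 and 0.0331). The calls of Mbtps1, Sp1 and Fbxw7 ended with library-size and pan-epithelial scaling and without library 1 or without library 2 labelled knockout, and those of Mbtps1 and Fbxw7 also without control 2. Fbxw7 further lost its call with upper-quartile factors and without control 3. Paqr3, which encodes a Golgi protein that tethers the SCAP-SREBP complex, was at 16.19, 15.38 and 9.412 CPM in the libraries labelled knockout, against 4.236, 4.191 and 4.411 CPM in controls (log2 fold 1.67, SE 0.204, edgeR adjusted p = 0.00137). It was the one gene of that list called higher.

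Of 12 LXR receptors and targets 3 were lower (25%) and 1 higher (8.33%), against 18.8% and 18.0% over all genes. The share called lower was thus near that of all genes. Nr1h3, which encodes LXR alpha, was at 10.88, 9.781 and 11.76 CPM in the libraries labelled knockout, against 23.57, 22.65 and 20.46 CPM in controls (log2 fold -1.04, SE 0.107, edgeR adjusted p = 0.000819). The apolipoprotein genes Apoe and Apoc1 had log2 folds of -1.65 and -1.34 (edgeR adjusted p = 0.00284 and 0.000652). Pltp, the phospholipid transfer protein gene, was higher (log2 fold 0.60, edgeR adjusted p = 0.00651). For Nr1h2, which encodes LXR beta, the log2 fold was -0.06 (edgeR adjusted p = 0.561), with its sign turned under library-size, upper-quartile and pan-epithelial scaling.

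Sterol transfer and ester genes went both ways, with 7 of 21 lower (33.3%) and 6 higher (28.6%), against 18.8% and 18.0% over all genes. Lipa, the lysosomal acid lipase gene that frees cholesterol from esters, was at 15.30, 15.15 and 17.31 CPM in the libraries labelled knockout, against 4.649, 4.434 and 3.767 CPM in controls (log2 fold 1.89, SE 0.122, edgeR adjusted p = 3e-04). Soat2, the other esterifying enzyme gene, was at 2.780, 3.244 and 1.127 CPM in the libraries labelled knockout, against 0.09648, 0.2439 and 0.1991 CPM in controls (log2 fold 3.71, SE 0.505, edgeR adjusted p = 0.00204). Even so its level stayed far below the 265.1 to 367.8 CPM of Soat1 in the libraries labelled knockout, on a scale not corrected for length. Lrp1, a large lipoprotein receptor gene also expressed by fibroblasts, and Stard5, a sterol carrier gene induced by ER stress, were higher by log2 folds of 1.04 and 1.42 (edgeR adjusted p = 0.00302 and 0.00307). The lower genes with the smallest adjusted p were Tmem97, Scp2, Stard3 and Lima1, with log2 folds of -0.79, -0.80, -0.70 and -0.51 (edgeR adjusted p = 0.00102, 0.00258, 0.00356 and 0.00458), of which Lima1 lost its call with library-size and pan-epithelial scaling.

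Users of isoprenoids were called in both directions, with 4 of 13 higher (30.8%) and 3 lower (23.1%). Over all genes these shares were 18.0% and 18.8%. The median log2 fold of the list was 0.02, and that of all genes tested was also 0.02. Dhdds and Nus1, which encode the 2 subunits of the enzyme that makes dolichol for protein glycosylation in the ER, were at log2 folds of 0.61 and 0.68 (edgeR adjusted p = 0.0237 and 0.012). The prenyltransferase subunit genes Fntb and Rabggtb were also higher (log2 folds 0.48 and 0.57, edgeR adjusted p = 0.0357 and 0.0383), while Icmt, Pggt1b and Fnta were lower (log2 folds -0.42, -0.36 and -0.27, edgeR adjusted p = 0.0178, 0.0188 and 0.0447). None of these 7 calls survived every omission of a single library. The call of Nus1 ended without library 2 labelled knockout alone, and the others ended without library 1 or without library 2 labelled knockout and without control 2. Dhdds, Fntb and Rabggtb also lost their calls without control 1 or control 3, and Fnta without control 1. Icmt, Pggt1b and Fnta were not called with library-size or pan-epithelial scaling, nor Fntb and Rabggtb by limma-voom. Fnta was also not called with RLE or upper-quartile factors, with no filter or with the 5 CPM filter (edgeR adjusted p = 0.0501 to 0.108).

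Of 6 tested genes of oxysterol and sterol catabolism 3 were higher (50%) and 2 lower (33.3%). Over all genes these shares were 18.0% and 18.8%. Ch25h, which makes 25-hydroxycholesterol, was at 3.927, 4.563 and 1.510 CPM in the libraries labelled knockout, against 0.7280, 0.9091 and 0.6892 CPM in controls (log2 fold 2.10, SE 0.401, edgeR adjusted p = 0.00692). Cyp27a1 and Cyp7b1, further oxysterol hydroxylase genes, had log2 folds of 1.43 and 1.39 (edgeR adjusted p = 0.00566 and 0.00922). Sult2b1, a sterol sulfotransferase gene, and Cyp39a1, an oxysterol hydroxylase gene, were lower (log2 folds -1.23 and -0.74, edgeR adjusted p = 0.000865 and 0.00245). Of 11 tested genes for electron supply, side enzymes and the ketone branch, 2 were lower, Por (log2 fold -0.58, edgeR adjusted p = 0.0111), which feeds electrons to Cyp51 and Sqle, and Lbr (log2 fold -0.41, edgeR adjusted p = 0.0173), a second sterol reductase gene. That share (18.2%) was close to the 18.8% of all genes called lower. Por lost its call without control 2, and Lbr without library 1 or 2 labelled knockout or control 2 and with library-size and pan-epithelial scaling. None of the 11 was called higher by edgeR, limma-voom or DESeq2, and none was higher at an unadjusted edgeR p under 0.05.

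**Figure D5:**
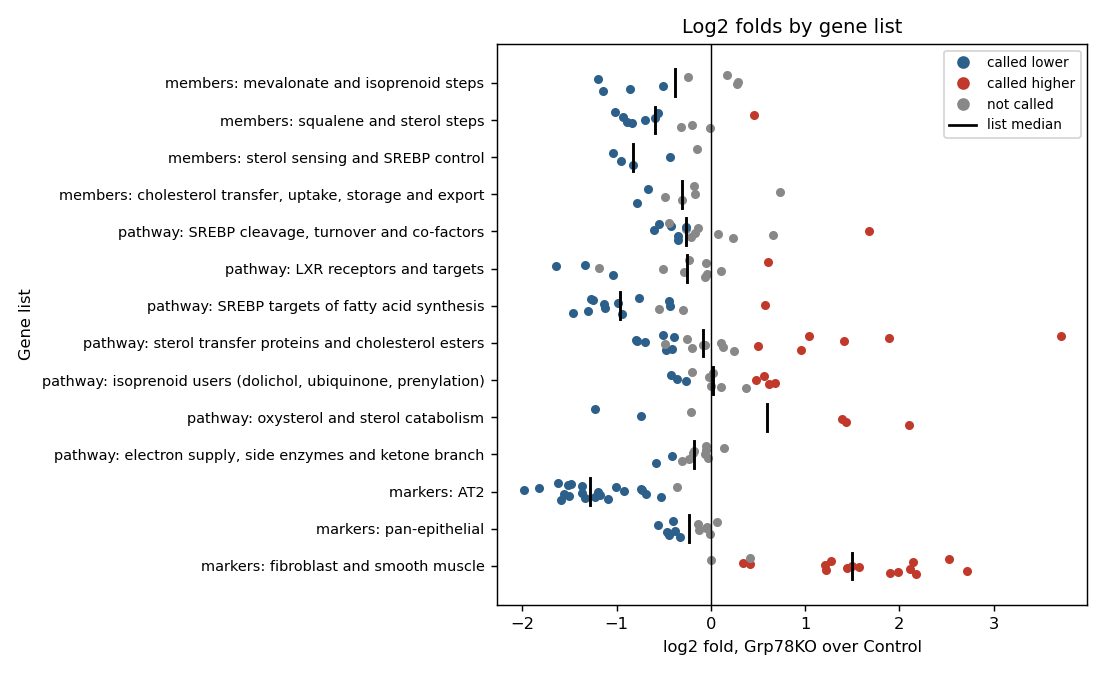
Log2 fold (horizontal axis, libraries labelled knockout over controls) of every tested gene in 4 role groups of members, 7 other pathway lists and 3 cell type marker lists (rows), with a black line at each list's median. The fatty acid targets (median -0.96) and SREBP control genes (-0.82) lie mostly left of 0, AT2 markers (-1.28) further left, and fibroblast markers (1.49) right of 0.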

How the data were processed

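RNA of 6 AT2 samples was made into NEBNext Ultra RNA libraries and read in pairs, per the labels' protocols. The authors deposited raw counts per gene symbol, not pooled, on genome build mm10; edgeR 3.7 was used, per the submitters' processing notes. The sources used here do not name the aligner, counter or gene annotation, nor a strand setting. A count of 2 was 1.63 to 1.76 times as frequent as a count of 1, as counting both mates of a pair would give. Counts may therefore overstate the number of fragments. Depth was 110770711 to 149520306 counts per library.

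In R 4.3.3, edgeR 4.0.16 tested the counts (low-count filter filterByExpr, TMM, robust dispersions, quasi-likelihood F test, group as the only term), with Benjamini-Hochberg adjustment over all 18849 genes tested. The SE came from dividing the log2 fold by the root of its F value. Values are CPM scaled by TMM. The script was tested on simulated counts. Alternatives used DESeq2 1.42.0, limma-voom (limma 3.58.1), other scalings and filters, a replicate block and libraries left out. Same-numbered libraries deviated from their group means together (correlations 0.350, 0.200 and 0.329 across genes). Between a library numbered 1 and one numbered 2 the correlations were 0.171 and 0.154. Between a library numbered 3 and one numbered 1 or 2 they were -0.350 to -0.211. The data thus set the libraries numbered 3 apart but hardly pair libraries 1 and 2 by number, and no label explains the numbers. All replicate pairs differed by more than sampling noise, with a chi-square of 7.98 to 166 per gene on halved counts.

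The members and lists were chosen with earlier results of these data known. By rule, members called or with separate groups are given in every library; in other lists all called genes where 5 or fewer moved one way, otherwise the 4 with the lowest adjusted p. Listed genes without a row were not analysed here. Gene coordinates and exon lengths are from GENCODE M21 on the same build, which matched 48018 of 52550 symbols.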

Additional observations from a re-analysis of the deposited data

How the results depend on the processing

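Of the 17 members called lower, 14 kept their call under all 16 alternatives. The exceptions were Mvk and Scap (library-size and pan-epithelial scaling) and Soat1 (library-size scaling, and without library 2 labelled knockout). The 1 member called higher became 3 with library-size scaling, 3 with pan-epithelial scaling, 2 with DESeq2, 4 without both libraries numbered 3, and 0 to 2 with single libraries left out. The members' median log2 fold was -0.26 with library-size scaling and -0.27 with pan-epithelial scaling, where the median of all genes moved to 0.27 and 0.26; calls over all genes were then 82.2% and 78.2% higher, against 48.9% with TMM. With single libraries left out, 3706 to 8548 genes were called, against 6938 with all libraries, and 10581 without both libraries numbered 3; members called lower numbered 16 to 20, lower synthesis enzymes 11 in every case, and calls in the other pathway lists 32 to 57. Fdft1, at -0.01 and not called with all libraries, was called higher at 0.22 without both libraries numbered 3. The causes were not tested, but leaving out libraries also changes the number of samples. With the replicate number as a block, Sqle (-0.32) and Npc1 (-0.30) became called lower, no other member's call changed, and 8415 genes were called. In the other pathway lists the block added 10 calls (Mbtps2, Erlin1, Nfya, Rxrb, Osbp, Osbpl8, Gramd1b, Scarb2, Zmpste24 and Cyb5a) and ended none. Of 496 values of single members under alternatives, 464 stayed on their side of the threshold, though the signs of values not called could turn, as for Insig2, Fdps, Lss, Scarb1 and Abca1 with library-size scaling. DESeq2 called 20 members lower, Sqle, Npc1 and Npc2 among them. Scarb1 and Insig2 had separate groups but missed the threshold, which does not show that a difference is absent; Insig2 was called lower without both libraries numbered 3 (-0.17, edgeR adjusted p = 0.0469).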
